A study of Mus musculus with 15 samples.

Results

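The 10 genes examined here are Nfe2l2 and 9 antioxidant genes that are commonly listed with it, namely Gclc, Gclm, Txnrd1, Srxn1, G6pdx, Nqo1, Hmox1, Gpx2 and Gpx3. They were taken by symbol from the 78298 genes in the count files, and all 10 were found and passed the filter on low counts. Poly-A RNA was sequenced from small intestinal organoids grown from the crypts of female C57BL/6J mice, in 15 libraries of 5 conditions with 3 replicates each. All lines were made by lentiviral transduction with puromycin selection, and every transgene was driven by the weak ubiquitous L30 promoter. The control, Halo-NLS, carried L30prom_V5-Halo-GDGAGLIN-NLS_IRES_Puro, which is the HaloTag with a nuclear localization signal. SOX9-mEGFP_budding carried L30prom_Sox9-GDGAGLIN-mEGFP-V5_IRES_Puro, and SOX9-Halo_budding carried L30prom_Sox9-GDGAGLIN-Halo-V5_IRES_Puro. SOX9-mEGFP_spheroid and SOX9-Halo_spheroid are the same 2 lines after prolonged culture, when the organoids had become spherical. After a second transduction these also carried L30prom_H2B-GDGAGLIN-mScarletI-V5_IRES_Neo with Geneticin selection (SOX9-mEGFP_spheroid) or L30prom_H2B-GDGAGLIN-mEGFP-V5_IRES_Zeo with Zeocin selection (SOX9-Halo_spheroid). Each transgene was studied in 1 stable line, and organoids of several wells were pooled for a library. Spheroid morphology, time in culture and the second transgene with its antibiotic therefore cannot be told apart.

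NRF2, the transcription factor encoded by Nfe2l2, is held at a low level by the adaptor KEAP1, which directs it to degradation. Oxidants and electrophiles modify KEAP1, and NRF2 then accumulates and binds antioxidant response elements together with small MAF proteins. Control thus acts mainly on the protein, and the mRNA of Nfe2l2 does not report NRF2 activity. Its known targets make glutathione, recycle thioredoxin, supply NADPH and detoxify quinones and haem, and Gpx2 is known as the glutathione peroxidase of the gastrointestinal epithelium.

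Between 28062722 and 40559766 reads per library were counted on genes (median 33491297). Sox9, which the transgenes encode, had a mean normalized count of 530 in Halo-NLS. It was higher in the 4 SOX9 conditions, at 9647 in SOX9-mEGFP_budding, 6237 in SOX9-Halo_budding, 16434 in SOX9-mEGFP_spheroid and 13389 in SOX9-Halo_spheroid. The SOX9-Halo_budding libraries were uneven, from 1336 to 10538, while the highest Halo-NLS library had 769. Markers of epithelium (Epcam, Cdh1, Krt8, Krt18) summed to 3399 CPM or more in every library. The 3 markers of intestinal epithelium (Cdx2, Vil1, Lgals4) summed to 2565 to 5288 CPM in the libraries of the other 4 conditions but to 138 to 234 CPM in SOX9-Halo_spheroid. The 3 leukocyte markers reached at most 8.16 CPM, the 4 mesenchymal markers 1.43 CPM and the 2 endothelial markers 0.722 CPM in any library. Halo-NLS replicate 3 stood apart from replicates 1 and 2 in 5 of the 10 genes. Its level over their mean was 0.338 for Nfe2l2, 0.375 for Nqo1, 0.430 for Gclm, 0.470 for Gclc and 2.79 for Gpx2, while the other 5 genes lay between 0.923 and 1.08. It also had the most genes with a count, 40375 against a median of 28352. Results against Halo-NLS that move without it are given both ways.

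The antioxidant response element is the sequence that ties these genes to NRF2, so its core was looked for in their promoters. RefSeq promoter windows (GRCm38.p6, from 250 bases before to 50 bases after the gene start, placed in GRCm39 by exact match) were at hand for 8 of the 10 genes, all but Hmox1 and Gclc. The core TGACNNNGC was searched on both strands and was found in 5 of the 10 windows of these genes, 1 each in 5 genes, and in 12.4% of all 32851 windows of 300 bases. The sites are printed on the strand of the gene, 5′ to 3′, with the core in capitals, and those that read GC first hold it on the opposite strand. Apart from that of Nfe2l2, the windows with a match belong to a start inside the annotated span of the gene. Positions count from the start of the window's transcript.
Nfe2l2, chr2:75535228-75535257, minus strand, at -240: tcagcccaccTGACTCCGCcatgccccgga
Gclm, chr3:122039062-122039091, plus strand, at -134: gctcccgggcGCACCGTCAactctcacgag
Txnrd1, chr10:82694938-82694967, plus strand, at -92: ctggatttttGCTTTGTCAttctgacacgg
Srxn1, chr2:151947462-151947491, plus strand, at 29: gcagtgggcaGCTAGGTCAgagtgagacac
G6pdx, chrX:73472524-73472553, minus strand, at -57: aggcgggtcaGCTCAGTCAaagcacacgcc
The letters of the AP-1 motif TGANTCA resemble the core and were counted apart. They were found in 7.81% of all windows and in 1 of the 8 genes, Srxn1, at 2 sites, which are shown with the motif in capitals.
Srxn1, chr2:151947331-151947360, plus strand, at -102: ctcggagggccTGAGTCAccacgctgtgcg
Srxn1, chr2:151947388-151947417, plus strand, at -45: caaattcacccTGAGTCAgcggccgggcgc
The windows of Nqo1, Gpx2 and Gpx3 held neither set of letters. Sequence more than 250 bases before the start and other forms of the core were not searched. A window without a match therefore does not show that a gene lacks the element. A match describes letters only. Of the 5 genes with the core, G6pdx and Gclm rose in a spheroid condition against Halo-NLS and Nfe2l2, Txnrd1 and Srxn1 were not called. Of those without it, Gpx2 rose, Nqo1 fell and Gpx3 was not called. Beside these stand 28.9% (SOX9-Halo_spheroid) and 27.5% (SOX9-mEGFP_spheroid) of all genes tested that were called. Whether a match goes with a change was not tested.

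All counts were scaled with TMM and fitted in 1 edgeR quasi-likelihood model over the 15 libraries. A gene was called at a Benjamini-Hochberg adjusted p of at most 0.01 over the 17560 genes tested, provided that it differed at least 2-fold and averaged 10 or more normalized counts over the libraries. Only 15718 of the genes tested averaged that many. Shares of all genes are over the 17560 and so are lower than among genes that could be called. The p-values measure the spread between the replicates of 1 line per condition. Normalized counts are given for replicates 1, 2 and 3 in that order, and errors of log2 fold changes are standard errors.

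In SOX9-Halo_spheroid against Halo-NLS, 5 of the 10 genes rose (Hmox1, Gclc, Gpx2, G6pdx and Gclm) and 1 fell (Nqo1), where 28.9% of all genes tested were called, 13.6% higher and 15.3% lower. In SOX9-mEGFP_spheroid, Gclc and Gpx2 rose and Nqo1 fell, where 27.5% of all genes were called, 15.3% higher and 12.1% lower. The median log2 fold change of the 10 genes was 0.86 in SOX9-Halo_spheroid and 0.01 in SOX9-mEGFP_spheroid, beside -0.01 and 0.03 for all genes tested. Both comparisons use the same 3 Halo-NLS libraries. The libraries did not overlap for 7 and 6 of the 10 genes, where the same held for 54.8% and 56.5% of all genes. Without Halo-NLS replicate 3 the calls numbered 5 in SOX9-Halo_spheroid, with Gclm lost, and 3 in SOX9-mEGFP_spheroid. In each spheroid condition called genes were thus found in both directions, which the plot of counts by library shows.

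**Figure D1:**
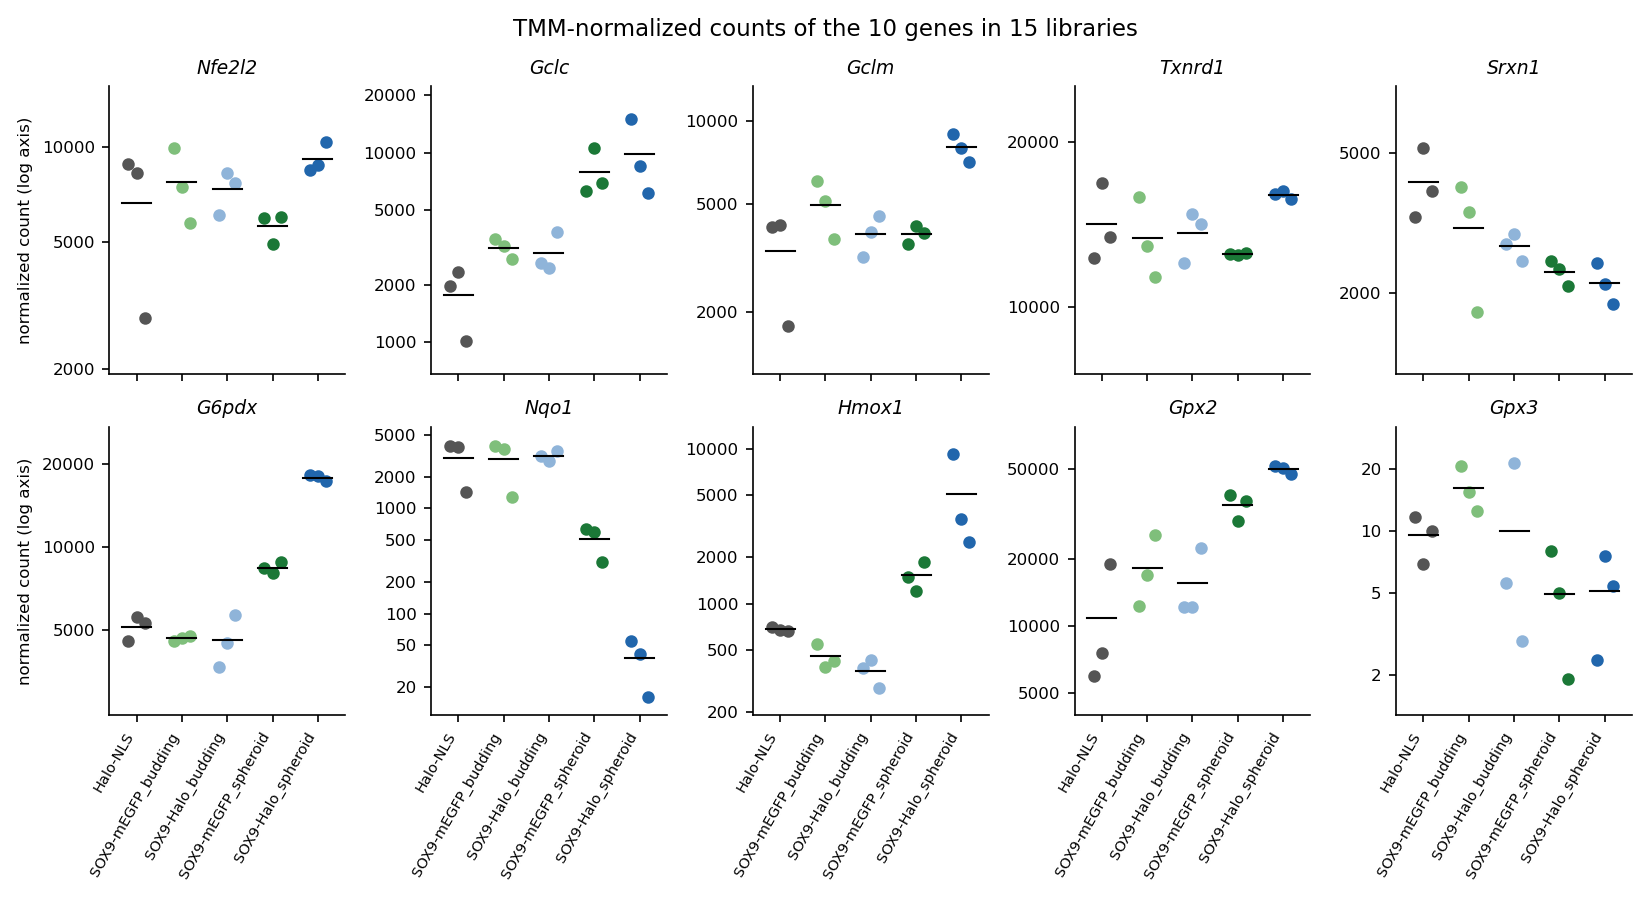
TMM-normalized counts (vertical log axis) of the 10 genes in the 15 libraries, grouped by condition along the horizontal axis, with 1 point per library and a bar at the mean of 3 replicates. Nqo1 falls from a mean of 3046 in Halo-NLS to 37.4 in SOX9-Halo_spheroid, while Hmox1, Gclc, G6pdx and Gpx2 are highest there.

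Nfe2l2 (ENSMUSG00000015839, chr2:75504739-75534985, minus strand) did not pass the test in any of the comparisons. Its normalized counts were 8797, 8273 and 2885 in Halo-NLS, 9930, 7450 and 5760 in SOX9-mEGFP_budding, 6084, 8276 and 7691 in SOX9-Halo_budding, 5959, 4944 and 6014 in SOX9-mEGFP_spheroid, and 8450, 8734 and 10343 in SOX9-Halo_spheroid. The range of each condition overlapped that of its neighbours in the order of means, and the lowest library was Halo-NLS replicate 3. The log2 fold change against Halo-NLS was 0.46 ± 0.32 in SOX9-Halo_spheroid (adjusted p = 0.25) and -0.24 ± 0.32 in SOX9-mEGFP_spheroid (adjusted p = 0.55), and 0.10 and -0.60 without that replicate (adjusted p = 0.75 and 0.045). Between the spheroids the libraries did not overlap, with a difference of 0.70 ± 0.32 (adjusted p = 0.14).

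Gclc and Gclm encode the catalytic and the modifier subunit of glutamate-cysteine ligase, the rate-limiting enzyme of glutathione synthesis. Gclc (ENSMUSG00000032350, chr9:77661797-77701770, plus strand) had normalized counts of 1990, 2349 and 1019 in Halo-NLS, 3505, 3231 and 2737 in SOX9-mEGFP_budding, 2614, 2473 and 3802 in SOX9-Halo_budding, 6272, 10515 and 6943 in SOX9-mEGFP_spheroid, and 14954, 8460 and 6091 in SOX9-Halo_spheroid. Every SOX9 library was above every Halo-NLS library, and every spheroid library above every budding library. Gclc rose by 2.46 ± 0.36 on the log2 scale in SOX9-Halo_spheroid (5.5-fold, adjusted p = 5.5e-05) and by 2.15 ± 0.36 in SOX9-mEGFP_spheroid (4.43-fold, adjusted p = 2.3e-04) against Halo-NLS. Without Halo-NLS replicate 3 these were 2.18 and 1.86, still called. The 2 spheroids overlapped and differed by 0.31 (95% interval -0.45 to 1.08).

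Gclm (ENSMUSG00000028124, chr3:122039126-122065061, plus strand) had normalized counts of 4103, 4186 and 1781 in Halo-NLS, 6042, 5105 and 3702 in SOX9-mEGFP_budding, 3194, 3921 and 4485 in SOX9-Halo_budding, 3544, 4156 and 3911 in SOX9-mEGFP_spheroid, and 8973, 8017 and 7089 in SOX9-Halo_spheroid. Only the SOX9-Halo_spheroid libraries lay above all others of the 15. There Gclm rose by 1.26 ± 0.28 (2.39-fold, adjusted p = 1.9e-03), a call that was lost without Halo-NLS replicate 3, where the log2 fold change was 0.95. In SOX9-mEGFP_spheroid the value was 0.21 ± 0.28 (adjusted p = 0.56), and -0.10 without that replicate. Of its exon bases, 12.6% lie in exons of other genes as well, and reads there were not counted.

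The 2 subunits thus did not keep their proportion. The count of Gclc over that of Gclm, which does not depend on the scaling of a library, was 0.485, 0.561 and 0.572 in Halo-NLS, 0.580, 0.633 and 0.739 in SOX9-mEGFP_budding and 0.818, 0.631 and 0.848 in SOX9-Halo_budding. It was 1.77, 2.53 and 1.78 in SOX9-mEGFP_spheroid and 1.67, 1.06 and 0.859 in SOX9-Halo_spheroid. All 6 spheroid libraries lay above the other 9 libraries, the SOX9-Halo_spheroid replicate 3 only just. These ratios were not tested.

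Txnrd1, the cytosolic thioredoxin reductase, and Srxn1, sulfiredoxin, which restores overoxidized peroxiredoxins, were not among the called genes in any comparison. Txnrd1 (ENSMUSG00000020250, chr10:82669785-82733546, plus strand) had 12296, 16819 and 13444 normalized counts in Halo-NLS, 15866, 12945 and 11341 in SOX9-mEGFP_budding, 12024, 14755 and 14164 in SOX9-Halo_budding, 12508, 12454 and 12534 in SOX9-mEGFP_spheroid, and 16036, 16264 and 15719 in SOX9-Halo_spheroid. Its levels spanned less than those of the other 9 genes, and its replicates lay closest together in the spheroids. The log2 fold change was 0.17 in SOX9-Halo_spheroid (95% interval -0.21 to 0.56) and -0.18 in SOX9-mEGFP_spheroid (95% interval -0.57 to 0.20) against Halo-NLS.

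Srxn1 (ENSMUSG00000032802, chr2:151947436-151957687, plus strand) had 3296, 5186 and 3921 normalized counts in Halo-NLS, 4020, 3413 and 1765 in SOX9-mEGFP_budding, 2759, 2956 and 2469 in SOX9-Halo_budding, 2467, 2340 and 2103 in SOX9-mEGFP_spheroid, and 2441, 2126 and 1869 in SOX9-Halo_spheroid. The spheroid libraries were all below those of Halo-NLS. The difference of -0.95 ± 0.26 in SOX9-Halo_spheroid had an adjusted p of 7.6e-03 but did not reach the fold threshold, which it passed without Halo-NLS replicate 1 (-1.08). That of -0.84 ± 0.26 in SOX9-mEGFP_spheroid had an adjusted p of 0.015. Without Halo-NLS replicate 3 these differences were -0.98 and -0.88 (adjusted p = 0.014 and 0.026), neither called. Srxn1 thus had its lowest means in the conditions in which those of Gclc and Gpx2 were highest.

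G6pdx encodes glucose-6-phosphate dehydrogenase, which makes NADPH in the first step of the pentose phosphate pathway. G6pdx (ENSMUSG00000031400, chrX:73449857-73472819, minus strand) had normalized counts of 4530, 5533 and 5264 in Halo-NLS, 4531, 4659 and 4749 in SOX9-mEGFP_budding, 3658, 4454 and 5644 in SOX9-Halo_budding, 8392, 8017 and 8812 in SOX9-mEGFP_spheroid, and 18197, 18101 and 17310 in SOX9-Halo_spheroid. Halo-NLS and the 2 budding conditions overlapped one another, SOX9-mEGFP_spheroid lay above them and SOX9-Halo_spheroid above that, in each case without overlap. G6pdx rose by 1.81 ± 0.17 in SOX9-Halo_spheroid (3.50-fold, adjusted p = 8.0e-07). In SOX9-mEGFP_spheroid the difference was 0.72 ± 0.17 (1.65-fold, adjusted p = 3.1e-03), which did not reach the fold threshold.

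The gene lies on the X chromosome, whose 479 tested genes had a median log2 fold change against Halo-NLS of 0.35 in SOX9-mEGFP_budding, 0.38 in SOX9-Halo_budding, 0.48 in SOX9-mEGFP_spheroid and 0.36 in SOX9-Halo_spheroid, beside 0.03, 0.01, 0.03 and -0.01 for all genes. Xist, the RNA that silences 1 X chromosome in female cells, had mean normalized counts of 2.93, 2.89 and 2.84 in Halo-NLS, SOX9-mEGFP_budding and SOX9-mEGFP_spheroid but 8391 and 1852 in SOX9-Halo_budding and SOX9-Halo_spheroid. Its libraries ranged from 1150 to 14450 in SOX9-Halo_budding and from 1453 to 2496 in SOX9-Halo_spheroid. All mice were female, so the near absence of Xist in 3 conditions is at odds with an intact silenced X chromosome there. The state of the X chromosomes was not examined, and the part of the X chromosome in the result for G6pdx was not tested. Within the SOX9-Halo line, from budding to spheroid, the X chromosome median was 1.2e-05, and G6pdx rose by 1.96 ± 0.18 (adjusted p = 4.1e-07).

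Nqo1, NAD(P)H quinone oxidoreductase, is the classical marker of NRF2 activity, and it fell in both spheroids. Nqo1 (ENSMUSG00000003849, chr8:108113835-108129934, minus strand) had normalized counts of 3896, 3798 and 1444 in Halo-NLS, 3964, 3688 and 1288 in SOX9-mEGFP_budding, 3134, 2842 and 3513 in SOX9-Halo_budding, 632, 594 and 309 in SOX9-mEGFP_spheroid, and 54.5, 41.6 and 16.2 in SOX9-Halo_spheroid. The 9 libraries of Halo-NLS and the budding conditions lay above all 6 spheroid libraries, and the 2 spheroids did not overlap. Nqo1 fell by 6.36 ± 0.60 on the log2 scale in SOX9-Halo_spheroid (82.1-fold lower, adjusted p = 5.8e-07) and by 2.57 ± 0.49 in SOX9-mEGFP_spheroid (5.95-fold lower, adjusted p = 6.3e-04) against Halo-NLS.

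Markers of enterocytes moved with Nqo1. The 5 of them (Alpi, Fabp1, Sis, Apoa1, Apoa4), none of which was at 0 in all libraries of a condition, summed to 4170 to 8516 CPM in Halo-NLS, 1384 to 5741 in SOX9-mEGFP_budding and 3649 to 7323 in SOX9-Halo_budding, but to 210 to 525 in SOX9-mEGFP_spheroid and 1.85 to 5.96 in SOX9-Halo_spheroid. Goblet, Paneth and enteroendocrine markers were also low in SOX9-Halo_spheroid, where they summed to 16.5 to 24.3, 0.926 to 1.51 and 0.209 to 0.378 CPM against 1714 to 6716, 835 to 1169 and 246 to 804 CPM in Halo-NLS. Of these 3 lists, only that of enteroendocrine cells was low in SOX9-mEGFP_spheroid as well (0.467 to 2.33 CPM), while goblet markers summed to 1969 to 3440 and Paneth markers to 1148 to 1405 CPM there. Crypt stem cell markers were lower in both spheroids, at 130 to 364 CPM in Halo-NLS, 47.6 to 78.8 in SOX9-mEGFP_spheroid and 20.7 to 33.6 in SOX9-Halo_spheroid. In bulk RNA, fewer cells of a type and less RNA per cell cannot be told apart, and the part of these cell types in the fall of Nqo1 was not tested. Over the 15 libraries, the 2 genes most like Nqo1 were Cyp2j9 (Pearson r = 0.993 of log2 CPM) and Chp2 (r = 0.989), with r = 0.909 and 0.781 for deviations from the means of the conditions.

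Hmox1, haem oxygenase 1, which breaks down haem, moved in the opposite direction to Nqo1. Hmox1 (ENSMUSG00000005413, chr8:75820241-75827217, plus strand) had 704, 678 and 666 normalized counts in Halo-NLS, 550, 391 and 427 in SOX9-mEGFP_budding, 386, 433 and 285 in SOX9-Halo_budding, 1484, 1209 and 1867 in SOX9-mEGFP_spheroid, and 9219, 3499 and 2487 in SOX9-Halo_spheroid. Both budding SOX9 conditions lay below Halo-NLS and both spheroids above it, all without overlap. Hmox1 rose by 2.89 ± 0.39 in SOX9-Halo_spheroid (7.42-fold, adjusted p = 2.5e-05), and its 3 replicates there differed more than in any other condition. Without SOX9-Halo_spheroid replicate 1, the highest, it rose by 2.14 ± 0.26 and was still called. The value in SOX9-mEGFP_spheroid was 1.15 ± 0.37 (2.23-fold, adjusted p = 0.019), and it passed without SOX9-Halo_spheroid replicate 1 or 3 (1.16 and 1.14), which enter the shared estimate of the spread.

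Nqo1 and Hmox1 lie on chromosome 8, whose 972 tested genes had a median log2 fold change of 0.32 in SOX9-Halo_spheroid and -0.18 in SOX9-mEGFP_spheroid against Halo-NLS. The part of the chromosome in the results for both genes was not tested.

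Gpx2 and Gpx3 encode glutathione peroxidases, of the gastrointestinal epithelium and secreted. Gpx2 (ENSMUSG00000042808, chr12:76839107-76842326, minus strand) had normalized counts of 5987, 7583 and 18946 in Halo-NLS, 12224, 16943 and 25423 in SOX9-mEGFP_budding, 12190, 12164 and 22398 in SOX9-Halo_budding, 38372, 29468 and 36133 in SOX9-mEGFP_spheroid, and 51611, 50680 and 47953 in SOX9-Halo_spheroid. The spheroids lay above all other libraries and did not overlap each other, while Halo-NLS and the budding conditions spread widely, each with replicate 3 highest. Gpx2 rose by 2.21 ± 0.40 in SOX9-Halo_spheroid (4.62-fold, adjusted p = 3.4e-04) and by 1.68 ± 0.39 in SOX9-mEGFP_spheroid (3.20-fold, adjusted p = 2.8e-03). Without Halo-NLS replicate 3 these were 2.88 and 2.35, both called, whereas without Halo-NLS replicate 2 the value in SOX9-mEGFP_spheroid was 1.49 (adjusted p = 0.014) and no longer called. In the budding conditions the values were 0.75 ± 0.38 (SOX9-mEGFP_budding) and 0.52 ± 0.38 (SOX9-Halo_budding), and 1.42 and 1.197 without Halo-NLS replicate 3 (adjusted p = 0.026 and 0.041), not called in either.

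Gpx3 (ENSMUSG00000018339, chr11:54793279-54802424, plus strand) had between 1.90 and 21.4 normalized counts in all libraries, with means of 4.97 to 16.2 over the conditions. Its mean lay below the 10 counts needed for a call. Of its exon bases, 85.0% are shared with Tnip1 on the opposite strand, and counting without strand left out reads on shared bases, so that most of the transcript could not be counted.

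Against Halo-NLS the budding organoids had 0 of the 10 genes called in both lines, where 2.76% (SOX9-mEGFP_budding, 1.99% higher and 0.763% lower) and 3.75% (SOX9-Halo_budding, 2.49% higher and 1.26% lower) of all genes tested were called by edgeR. These shares depended on single libraries, since without Halo-NLS replicate 1 there were 1839 genes higher and 345 lower in SOX9-mEGFP_budding and 1986 and 384 in SOX9-Halo_budding, against 350 and 134 and against 438 and 221 with all libraries. DESeq2 also called 0 of the 10 genes. At an unadjusted p below 0.05 there was 1 gene in SOX9-mEGFP_budding, Gclc at 0.82 ± 0.35 (adjusted p = 0.11), and there were 2 in SOX9-Halo_budding, Hmox1 at -0.89 ± 0.37 (adjusted p = 0.099) and Srxn1 at -0.60 ± 0.26 (adjusted p = 0.11). The libraries did not overlap for 3 genes in each comparison, as for 32.5% and 29.7% of all genes. For Nqo1 the 95% interval was -1.06 to 0.99 in SOX9-mEGFP_budding and -0.97 to 1.08 in SOX9-Halo_budding, so that differences up to about the fold threshold lay within it. The adjusted p needed for a call is stricter than this interval, so larger differences could also go uncalled. Between SOX9-Halo_budding and SOX9-mEGFP_budding 0 of the 10 genes were called by either tool and 0 had an unadjusted p below 0.05, where 0.456% of all genes were called. The differences between these 2 conditions ran from -0.70 ± 0.61 for Gpx3 (-1.86 without SOX9-Halo_budding replicate 2) to 0.09 ± 0.46 for Nqo1.

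**Figure D2:**
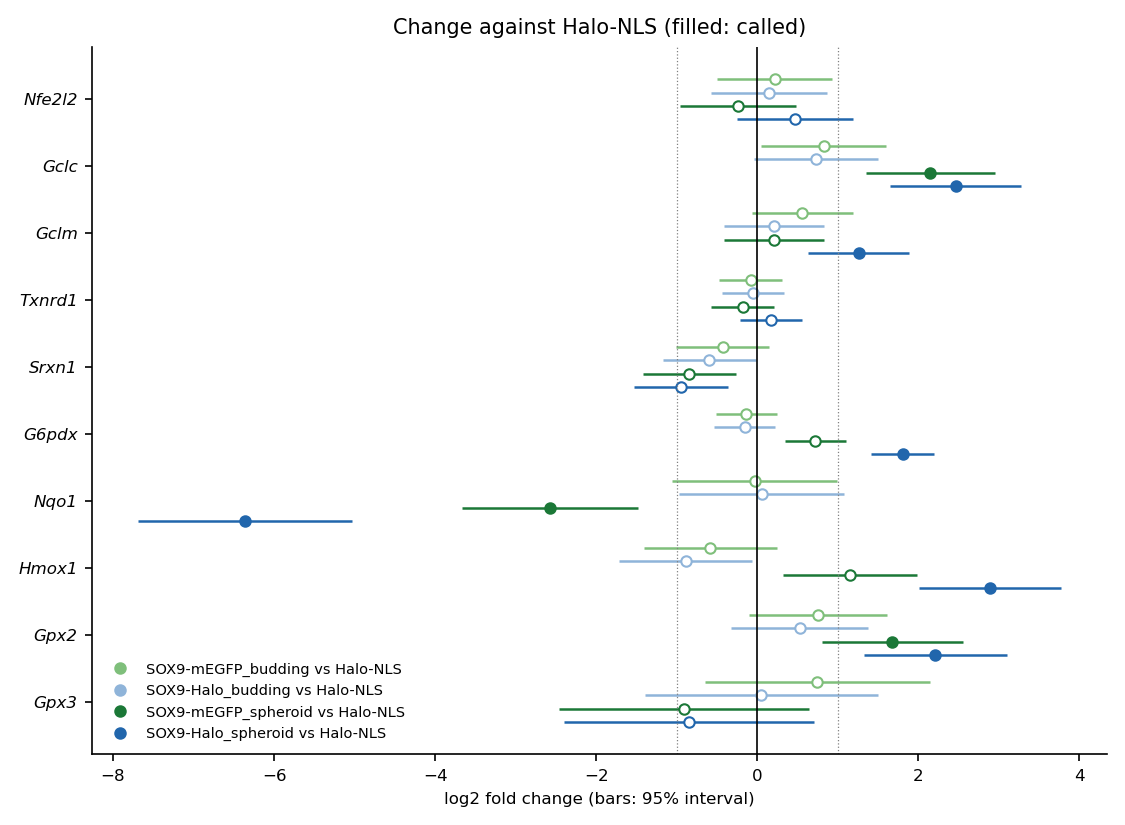
Log2 fold change of each gene against Halo-NLS (horizontal axis) in the 4 SOX9 conditions, with bars for 95% intervals, filled points for called genes and dotted lines at the fold threshold. The points of the budding conditions are all open, and Nqo1 (-6.36) and Hmox1 (2.89) lie farthest from 0 in SOX9-Halo_spheroid.

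The change from budding to spheroid within a line shares no library with that in the other line. In the SOX9-Halo line 5 genes rose and 1 fell among the 10, where 25.3% of all genes were called, 10.5% higher and 14.7% lower. Nqo1 fell by 6.41 ± 0.60, and Hmox1 rose by 3.78 ± 0.41 (13.8-fold, adjusted p = 2.8e-06), or by 3.03 without SOX9-Halo_spheroid replicate 1. G6pdx, Gclc, Gpx2 and Gclm rose by 1.96, 1.73, 1.68 and 1.05. The call of Gpx2 was lost without SOX9-Halo_budding replicate 1 or 2 (1.53 and 1.54), and that of Gclm without any 1 of the 6 libraries of the line (0.93 to 1.19), of SOX9-mEGFP_spheroid (1.00 in each case) or without SOX9-mEGFP_budding replicate 2 (1.00). In the SOX9-mEGFP line Nqo1 fell by 2.54 ± 0.49 (adjusted p = 1.0e-03), while Hmox1 rose by 1.74 ± 0.38 (adjusted p = 2.7e-03) and Gclc by 1.32 ± 0.35 (adjusted p = 9.9e-03), where 16.4% of all genes were called, 8.55% higher and 7.88% lower. Without SOX9-mEGFP_budding replicate 2 or 3 or SOX9-mEGFP_spheroid replicate 3 the call of Hmox1 was lost (1.61, 1.64 and 1.53), and that of Gclc was lost without any 1 of the 6 libraries of the line (1.03 to 1.45) and without 5 libraries of other conditions. G6pdx differed by 0.86 ± 0.17 (adjusted p = 1.4e-03), under the fold threshold, and Gpx2 by 0.93 ± 0.39 (adjusted p = 0.090). The libraries did not overlap for 9 genes in the SOX9-Halo line and 6 in the SOX9-mEGFP line, as for 52.8% and 46% of all genes.

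Between the spheroids, Hmox1 was higher by 1.74 ± 0.38 (3.33-fold, adjusted p = 3.1e-03) and G6pdx by 1.09 ± 0.17 (2.13-fold, adjusted p = 2.4e-04) in SOX9-Halo_spheroid, and Nqo1 was lower there (-3.78 ± 0.54, 13.8-fold, adjusted p = 9.6e-05), where 13.2% of all genes were called, 3.59% higher and 9.58% lower. The libraries did not overlap for 7 of the 10 genes, as for 48.6% of all genes. The call of Hmox1 was lost without SOX9-mEGFP_spheroid replicate 1 or 2 (1.70 and 1.59) or SOX9-Halo_spheroid replicate 1 (0.98). Gclm differed by 1.05 ± 0.28 with an adjusted p of 0.013, and DESeq2 called it in addition, as did edgeR without Halo-NLS replicate 3 (1.05) or SOX9-mEGFP_budding replicate 3 (1.11). An interaction term asked whether the lines changed by different amounts. The change in the SOX9-Halo line minus that in the SOX9-mEGFP line was -3.87 ± 0.70 for Nqo1 (adjusted p = 1.5e-03) and 1.11 ± 0.24 for G6pdx (adjusted p = 5.8e-03), where 7.39% of all genes were called, 1.81% higher and 5.58% lower. The call of G6pdx was lost without any 1 of 10 of the 12 SOX9 libraries (0.97 to 1.13), all but SOX9-mEGFP_budding replicate 3 and SOX9-Halo_budding replicate 3. For Hmox1 it was 2.05 ± 0.53 (adjusted p = 0.017) and for Gclm 1.41 ± 0.40 (adjusted p = 0.029), which did not pass. They passed without SOX9-Halo_spheroid replicate 3 (Hmox1, 2.35) and without Halo-NLS replicate 3 (Gclm, 1.41), while without SOX9-Halo_spheroid replicate 1 the value of Hmox1 was 1.29 (adjusted p = 0.026). Gclc gave 0.41 (95% interval -0.68 to 1.49) and Gpx2 0.75 (95% interval -0.45 to 1.96). The lines differ in tag, second transgene, antibiotic and time in culture, and also in Xist, which was at high counts in the SOX9-Halo line alone. These differences cannot be told apart.

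**Figure D3:**
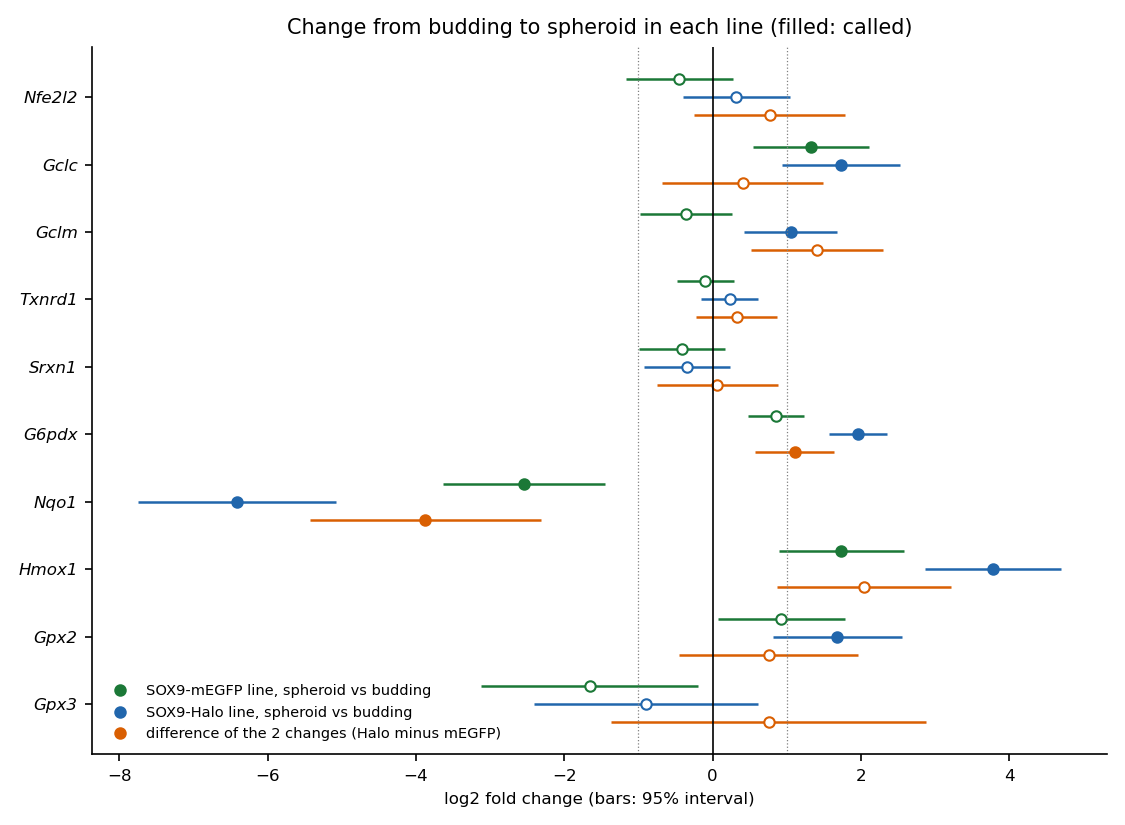
Log2 fold change of each gene from budding to spheroid (horizontal axis) in the SOX9-mEGFP line, in the SOX9-Halo line and as the difference of the 2 changes, with bars for 95% intervals and filled points for called values. Nqo1 falls in both lines (-2.54 and -6.41), and its difference of -3.87 and that of 1.11 for G6pdx are filled.

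Levels of different genes were compared per kilobase of exon, as normalized counts divided by the length of the merged exons and by library size (RPKM). The merged exons of Gpx2 cover its whole span of 3220 bases, introns included through 1 annotated transcript, which lowers its level. In Halo-NLS the order by mean was Gpx2 (101 RPKM), Txnrd1 (60.003), Nfe2l2 (36.5), Nqo1 (33.2), G6pdx (23.7), Srxn1 (13.2), Gclm (12.6), Hmox1 (11.6), Gclc (8.54) and Gpx3 (0.0937). In SOX9-Halo_spheroid it was Gpx2 (466 RPKM), Hmox1 (86.4), G6pdx (82.8), Txnrd1 (67.7), Nfe2l2 (50.4), Gclc (47.0), Gclm (30.2), Srxn1 (6.85), Nqo1 (0.408) and Gpx3 (0.05004). Gclc and Hmox1 thus moved from the lower end of the list to its middle and upper part, and Nqo1 from the upper part to the place above Gpx3. With the length of the longest transcript in place of merged exons, Txnrd1 (117 RPKM) stood above Gpx2 (103) in Halo-NLS, and in SOX9-Halo_spheroid Txnrd1 (132) stood above Hmox1 (96.3) and G6pdx (90.7). That length shortens Txnrd1 from 7086 to 3622 bases but leaves Gpx2 at 3165, introns still included. The order of Txnrd1 and Gpx2 therefore depends on the annotation. Neighbours in these orders often overlapped, since Hmox1 alone ranged from 42.4 to 157 RPKM over the 3 SOX9-Halo_spheroid libraries.

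**Figure D4:**
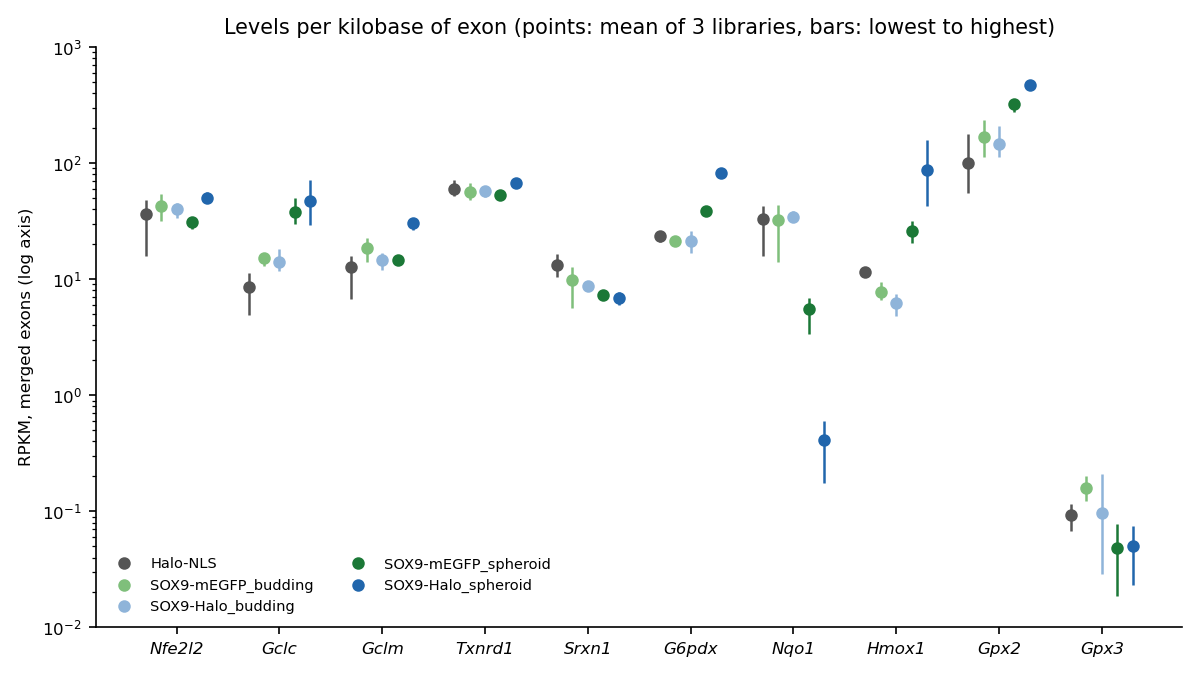
Level per kilobase of merged exon (RPKM, vertical log axis) of the 10 genes in the 5 conditions, with points at the mean of 3 libraries and bars from the lowest to the highest. By this length Gpx2 is the highest gene in every condition, and Nqo1 drops to 0.408 RPKM in SOX9-Halo_spheroid.

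The genes whose log2 CPM over the 15 libraries was most like that of each gene were looked up among the 11054 genes that averaged 100 or more normalized counts, as a description without a test, since libraries of 1 condition share their state. For Nfe2l2 these were Rragc and Gpd2 (Pearson r = 0.902 and 0.866), for Gclc Srp72 and Trim16 (0.963 and 0.957), for Gclm Ide and Ankrd46 (0.929 and 0.893), and for Txnrd1 Igsf3 and Pnpla6 (0.881 and 0.863). Srxn1 was most like Pex19 and Slc27a4 (0.960 and 0.945), G6pdx like Gnpat and Lpar2 (0.988 and 0.985), and Hmox1 like Sh3bgrl3 and Cd81 (0.961 and 0.957). Gpx2 was most like Ift27 and Zfp365 (0.956 and 0.952) and Gpx3 like Pole4 and Gm16046 (0.812 and 0.801). None of the 10 genes was among the 2 most like another.

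Around these genes, 132 tested genes of the same pathways were read from 9 lists by role. Against Halo-NLS, 17 rose and 31 fell in SOX9-mEGFP_spheroid and 16 rose and 33 fell in SOX9-Halo_spheroid, which is 36.4% and 37.1% beside 27.5% and 28.9% of all genes. Without Halo-NLS replicate 3, 11 rose and 30 fell in SOX9-mEGFP_spheroid and 15 rose and 32 fell in SOX9-Halo_spheroid, and without SOX9-mEGFP_spheroid replicate 3 or replicate 2 the number that rose in that condition was 11 or 12. Scaled by library sizes alone, 23 rose and 24 fell in SOX9-mEGFP_spheroid and 19 rose and 26 fell in SOX9-Halo_spheroid. In the budding conditions 1 rose and 3 fell (SOX9-mEGFP_budding) and 3 rose and 8 fell (SOX9-Halo_budding), which is 3.03% and 8.33% beside 2.76% and 3.75% of all genes. Changes in the lists below are against Halo-NLS unless another condition is named. They therefore include any difference that was already there in budding organoids.

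**Figure D5:**
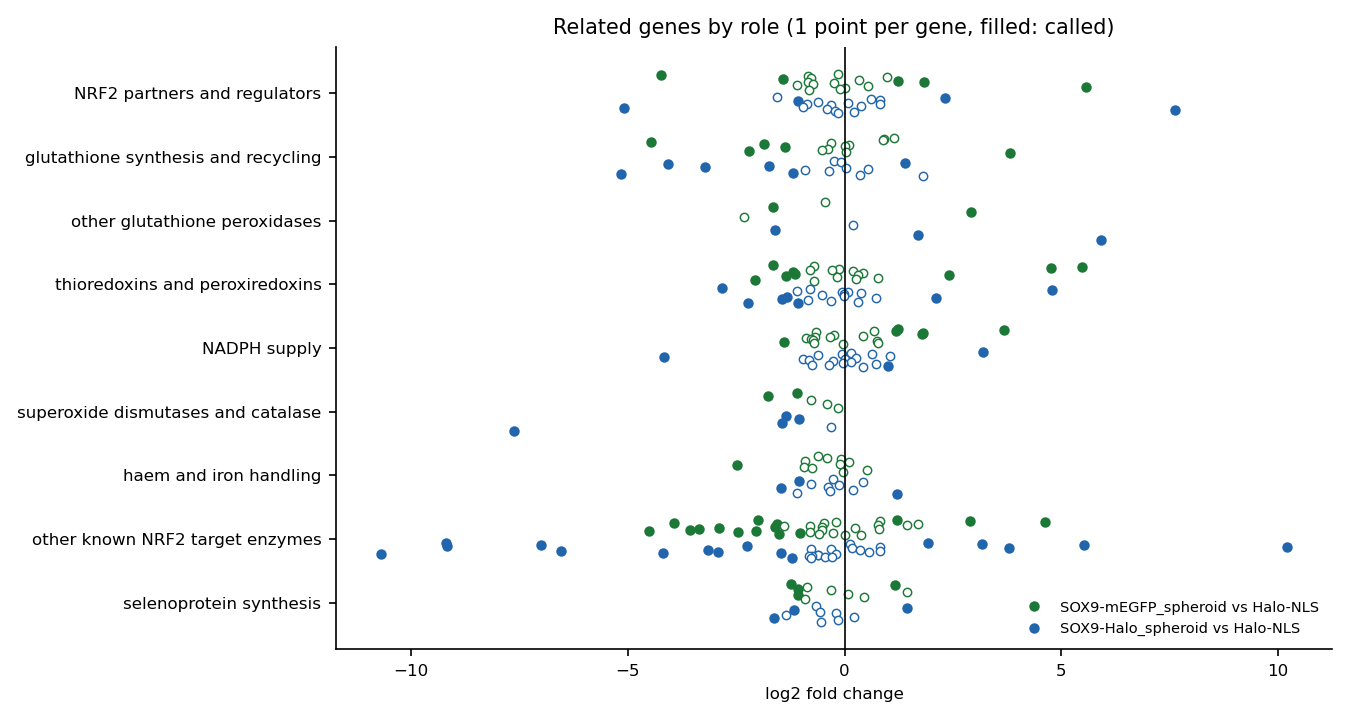
Log2 fold change against Halo-NLS (horizontal axis) of the related genes in the 9 lists (rows), with 1 point per gene for each spheroid condition, filled where called. The values run from -10.69 for Gstm3 to 10.20 for Aldh3a1, both in SOX9-Halo_spheroid and both in the list of other known NRF2 target enzymes.

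Among 18 partners and regulators of NRF2, 3 rose and 2 fell in SOX9-mEGFP_spheroid and 2 rose and 2 fell in SOX9-Halo_spheroid, with medians of -0.21 and -0.18. Keap1, whose product holds NRF2 in check, had log2 fold changes of -0.84 ± 0.20 in SOX9-mEGFP_spheroid (adjusted p = 3.8e-03) and -0.87 ± 0.20 in SOX9-Halo_spheroid (adjusted p = 2.8e-03), under the fold threshold in both. Mean counts of Keap1 were 3200 in Halo-NLS, 2053 in SOX9-mEGFP_budding, 1931 in SOX9-Halo_budding, 1790 in SOX9-mEGFP_spheroid and 1757 in SOX9-Halo_spheroid, so that most of the difference was already there in budding organoids. Bach1, a repressor that competes with NRF2 at Hmox1, had -0.17 ± 0.44 and -1.57 ± 0.45 (adjusted p = 0.77 and 0.010, the second just above the threshold). The Halo-NLS libraries ranged from 542 to 2918 normalized counts, and these values depended on single ones of them. Without Halo-NLS replicate 1, the highest, they were 0.93 and -0.47 (adjusted p = 6.0e-03 and 0.11), neither called, and without replicate 2 or 3 the value in SOX9-Halo_spheroid was -1.86 or -1.96 and called. Against SOX9-Halo_budding, Bach1 fell by 2.74 in SOX9-Halo_spheroid (adjusted p = 2.4e-04). Nfe2l3, a close relative of Nfe2l2, rose from 1.15 to 5.03 normalized counts in Halo-NLS to 127 to 185 in SOX9-mEGFP_spheroid and 555 to 856 in SOX9-Halo_spheroid. Nfe2, another relative, fell by 5.10 ± 0.64 in SOX9-Halo_spheroid. Bach2, a further repressor of the family, rose there by 2.32 ± 0.49 and was at least 4.96-fold lower in SOX9-mEGFP_spheroid, where no library held more than 1 count (3 counts per library taken as the floor).

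In glutathione synthesis and recycling, 1 of 14 genes rose and 4 fell in SOX9-mEGFP_spheroid and 1 rose and 5 fell in SOX9-Halo_spheroid. Slc7a11, which imports the cystine from which glutathione is made, rose by 3.82 ± 0.71 in SOX9-mEGFP_spheroid (adjusted p = 5.2e-04) and had 1.80 ± 0.66 in SOX9-Halo_spheroid (adjusted p = 0.034). Without Halo-NLS replicate 1 these were 4.67 and 2.65, both called, and without SOX9-Halo_spheroid replicate 1 the second was 0.96 (adjusted p = 0.24). Ggt1, the brush border enzyme that cleaves extracellular glutathione, fell in both, with log2 fold changes of -4.47 ± 0.54 in SOX9-mEGFP_spheroid and -4.08 ± 0.53 in SOX9-Halo_spheroid. Oplah, 5-oxoprolinase, also fell in both (-2.22 ± 0.43 and -5.16 ± 0.50). Mean counts of Oplah were 860 in Halo-NLS, 200 in SOX9-mEGFP_budding and 185 in SOX9-mEGFP_spheroid, and 78.8 in SOX9-Halo_budding and 24.0 in SOX9-Halo_spheroid.

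Of the other glutathione peroxidases, 4 of 6 were tested. Of these 1 rose and 1 fell in SOX9-mEGFP_spheroid, and 2 rose and 1 fell in SOX9-Halo_spheroid. Gpx4, which reduces lipid hydroperoxides, fell in both (-1.66 ± 0.30 and -1.60 ± 0.30), opposite to Gpx2. Mean counts of Gpx4 were 18123 in Halo-NLS, 8965 in SOX9-mEGFP_budding and 5750 in SOX9-mEGFP_spheroid, and 9694 in SOX9-Halo_budding and 5983 in SOX9-Halo_spheroid. Most of the difference was thus already there in budding organoids. The count of Gpx2 over that of Gpx4 was 0.348, 0.430 and 0.970 in Halo-NLS, 1.08, 1.64 and 4.85 in SOX9-mEGFP_budding, 1.03, 1.12 and 3.52 in SOX9-Halo_budding, 5.76, 4.81 and 8.09 in SOX9-mEGFP_spheroid, and 7.49, 8.09 and 10.007 in SOX9-Halo_spheroid. Every SOX9 library was above the Halo-NLS libraries, and the spheroids lay above the budding libraries except that SOX9-mEGFP_budding replicate 3 just exceeded SOX9-mEGFP_spheroid replicate 2. Gpx7, of the endoplasmic reticulum, rose in both (2.91 ± 0.33 and 1.68 ± 0.33). Gpx8, of the same compartment, had at most 5.03 normalized counts in the libraries of the other 4 conditions and 99.5 to 151 in SOX9-Halo_spheroid, and was at least 46.4-fold higher there than in SOX9-mEGFP_spheroid.

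Among 19 thioredoxins, peroxiredoxins and methionine sulfoxide reductases, 3 rose and 5 fell in SOX9-mEGFP_spheroid and 2 rose and 5 fell in SOX9-Halo_spheroid. The methionine sulfoxide reductases were called in both directions. Msrb2 rose in both spheroids (5.47 ± 0.70 and 4.79 ± 0.70), Msra fell in both (-1.65 ± 0.29 and -2.82 ± 0.30), and Msrb3 rose by 4.77 ± 0.65 in SOX9-mEGFP_spheroid and had -1.10 ± 0.76 in SOX9-Halo_spheroid (adjusted p = 0.25). In Halo-NLS Msrb2 had 0 to 11.3 and Msrb3 0 to 25.1 normalized counts, so that the fitted size of these changes depended on single Halo-NLS libraries. Without Halo-NLS replicate 3, Msrb2 gave 10.44 in SOX9-mEGFP_spheroid and 9.76 in SOX9-Halo_spheroid, and Msrb3 gave 6.28 and 0.41. Without Halo-NLS replicate 2, Msrb2 gave 4.88 and 4.20 and Msrb3 gave 4.18 and -1.70, with no call changed in either case. Msrb2 was already above Halo-NLS (mean 3.77) in budding organoids. Its means were 26.2 in SOX9-mEGFP_budding and 171 in SOX9-mEGFP_spheroid, and 119 in SOX9-Halo_budding and 106 in SOX9-Halo_spheroid.

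Of 19 tested genes of NADPH supply, 5 rose and 1 fell in SOX9-mEGFP_spheroid and 2 rose and 1 fell in SOX9-Halo_spheroid. Aldh1l1 and Aldh1l2, the cytosolic and mitochondrial folate enzymes that yield NADPH, rose by 1.24 ± 0.32 and 3.67 ± 0.79 in SOX9-mEGFP_spheroid, whereas in SOX9-Halo_spheroid Aldh1l1 rose by 3.20 ± 0.34 and Aldh1l2 had 0.15 ± 0.72 (adjusted p = 0.88). In SOX9-mEGFP_spheroid the call of Aldh1l1 was lost without any Halo-NLS library or without replicate 1 or 3 of that condition (1.17 to 1.31), and that of Aldh1l2 without Halo-NLS replicate 3 (3.30), while without Halo-NLS replicate 1 Aldh1l2 gave 4.32. In SOX9-Halo_spheroid Aldh1l2 gave -1.51 without replicate 1 of that condition and 0.81 without Halo-NLS replicate 1, neither called. Me3, a mitochondrial malic enzyme, rose by 1.79 ± 0.44 in SOX9-mEGFP_spheroid, a call lost without Halo-NLS replicate 1 or 2 or replicate 1 or 2 of that condition (1.495 to 1.75) and larger without Halo-NLS replicate 3 (2.38), and was at least 6.65-fold lower than Halo-NLS in SOX9-Halo_spheroid. Mean counts of Me3 were 20.2 in Halo-NLS, 71.7 in SOX9-mEGFP_budding and 69.9 in SOX9-mEGFP_spheroid. Those of Aldh1l1 were 143 in Halo-NLS, 975 in SOX9-Halo_budding and 1319 in SOX9-Halo_spheroid, but 76.9 in SOX9-mEGFP_budding and 338 in SOX9-mEGFP_spheroid. The rise of Me3 in the SOX9-mEGFP line and most of that of Aldh1l1 in the SOX9-Halo line were thus already there in budding organoids.

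The superoxide dismutase list had 2 of 5 genes lower in SOX9-mEGFP_spheroid and 4 of 5 in SOX9-Halo_spheroid. Sod1 had -0.79 ± 0.20 (adjusted p = 5.2e-03, under the fold threshold) in SOX9-mEGFP_spheroid and fell by 1.45 ± 0.20 in SOX9-Halo_spheroid. Ccs, its copper chaperone, fell in both (-1.77 ± 0.19 and -1.06 ± 0.19), the second not called without Halo-NLS replicate 3 (-0.98). Mean counts of Ccs were 3708 in Halo-NLS, 2274 in SOX9-mEGFP_budding and 1088 in SOX9-mEGFP_spheroid, and 1843 in SOX9-Halo_budding and 1783 in SOX9-Halo_spheroid. The extracellular Sod3 had no count in SOX9-Halo_spheroid, at least 8.07-fold lower than in Halo-NLS.

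In haem and iron handling, 1 of 11 genes fell in SOX9-mEGFP_spheroid, and 1 rose and 2 fell in SOX9-Halo_spheroid, where Hmox1 was highest. Fth1, the ferritin heavy chain that stores iron, fell in both (-2.48 ± 0.21 and -1.46 ± 0.20). Its mean counts were 140372 in Halo-NLS, 72732 in SOX9-mEGFP_budding and 25188 in SOX9-mEGFP_spheroid. In the SOX9-Halo line they were 56188 in SOX9-Halo_budding and 50971 in SOX9-Halo_spheroid, so that nearly the whole difference from Halo-NLS was already there in budding organoids. Slc48a1, a haem transporter, rose by 1.22 ± 0.20 in SOX9-Halo_spheroid and had -0.03 ± 0.20 in SOX9-mEGFP_spheroid. Alas1, the first enzyme of haem synthesis, fell by 1.04 ± 0.24 in SOX9-Halo_spheroid, a call lost without Halo-NLS replicate 2 or replicate 2 or 3 of that condition (-0.83, -1.03 and -1.04), and had -0.41 ± 0.24 in SOX9-mEGFP_spheroid.

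Of 32 other enzymes and transporters known as NRF2 targets, 3 rose and 12 fell in SOX9-mEGFP_spheroid and 5 rose and 11 fell in SOX9-Halo_spheroid, with medians of -0.57 and -0.61. Gstm3, a glutathione S-transferase, had 36097 to 126152 normalized counts in Halo-NLS, 1753 to 6557 in SOX9-mEGFP_spheroid and 30.3 to 85.5 in SOX9-Halo_spheroid. Abcc2, which exports glutathione conjugates, fell in both (-2.01 ± 0.45 and -9.20 ± 0.63), the first not called without SOX9-mEGFP_spheroid replicate 3 (-1.82) and the second -10.12 without SOX9-Halo_spheroid replicate 3. Aldh3a1, an aldehyde dehydrogenase, had 5.23 to 6.29 normalized counts in Halo-NLS and 5432 to 9228 in SOX9-Halo_spheroid, against 14.3 to 24.0 in SOX9-mEGFP_spheroid (1.69 ± 0.51, adjusted p = 0.013, past the threshold without any 1 SOX9-Halo_budding library). Gstm3, like Fth1, has close copies in the genome, so that its counts are less certain. The 5 enterocyte markers given beside Nqo1 were lower in the same libraries as Gstm3, Abcc2 and Ggt1, and their part in these falls was not tested.

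Selenium enters Txnrd1, Gpx2, Gpx3 and Gpx4 as selenocysteine, and of 10 genes of selenoprotein synthesis 1 rose and 3 fell in SOX9-mEGFP_spheroid and 1 rose and 2 fell in SOX9-Halo_spheroid. Lrp8, a receptor for the selenium carrier selenoprotein P, rose in both (1.16 ± 0.29 and 1.44 ± 0.29), the first not called without any 1 Halo-NLS library or without SOX9-mEGFP_spheroid replicate 2 or 3 (1.037 to 1.20002). Sephs2, which makes the selenium donor, fell in both (-1.08 ± 0.22 and -1.63 ± 0.22), the first not called without Halo-NLS replicate 2 (-0.95), and Eefsec, the elongation factor for selenocysteine, fell by 1.23 ± 0.24 in SOX9-mEGFP_spheroid and had -0.67 ± 0.23 in SOX9-Halo_spheroid (adjusted p = 0.027).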

How the data were processed

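Per the labels and the methods, reads were trimmed with cutadapt 4.5, aligned to mm39 (GRCm39) with STAR, and uniquely aligned reads were counted on genes with HTSeq 2.0.2 in union mode without strand. The deposited counts are whole numbers per gene and library and are not normalized. The authors also deposited a table of normalized counts and 7 tables of their own DESeq2 comparisons (fold changes and p-values), which were not used. Reads on no gene (1.83% to 6.09%) and on more than 1 gene (9.65% to 13.6%) stayed out of the library sizes.

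Counts were filtered with filterByExpr, scaled with TMM and fitted with edgeR 4.0.16 in R 4.3.3 (glmQLFit and glmQLFTest, 1 coefficient per condition, 10 residual degrees of freedom). DESeq2 1.42.0, other scalings, other filters, a fit of the compared libraries alone and leaving out each library were the alternatives. After these fits the method was also run on counts simulated from the means and dispersions of the data. That run covered SOX9-Halo_spheroid against Halo-NLS alone, and its outcome is not given here. Intervals are 95% intervals from the standard error. Levels per kilobase used merged exons of GENCODE M39, and Python 3.11.15 made tables and figures.

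The 10 genes and the lists were chosen with earlier results of these data known. Named are the 10 genes and, from each list, the called members with the 3 largest changes in either spheroid against Halo-NLS, plus Keap1, Bach1 and Slc7a11. For each of the 10 genes, the 2 genes of most like pattern are named. Sox9 and Xist were looked up, and markers of other cell types were summed.

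The replicate numbers were checked for pairing by the correlation of same-numbered libraries' deviations from their condition's mean. All 3 correlations exceeded 0.1 in 1 of 10 pairs of conditions, SOX9-Halo_budding and SOX9-Halo_spheroid (r = 0.403, 0.234 and 0.344), and libraries were taken as paired there by this correlation alone. Over all pairs, 17 of 30 correlations exceeded 0.1, and they ran from -0.32 to 0.82. Replicates that share an effect in other pairs are therefore not excluded.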

Additional observations from a re-analysis of the deposited data

Results flagged for a closer look

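In 2 of the 10 genes the interaction of line and morphology was itself called. For Nqo1 the change in the SOX9-Halo line minus that in the SOX9-mEGFP line was -3.87 (95% interval -5.43 to -2.32), since its mean normalized count went from 3163 to 37.4 in the SOX9-Halo line and from 2980 to 511 in the SOX9-mEGFP line. The call was kept under all alternatives. For G6pdx the difference was 1.11 (95% interval 0.57 to 1.64), with means going from 4585 to 17870 in the SOX9-Halo line and from 4646 to 8407 in the SOX9-mEGFP line, and this call was lost in 12 alternatives (0.97 to 1.13, adjusted p from 0.012 to 0.047). Xist was detected at high counts in the SOX9-Halo line alone, and its part in the difference of G6pdx was not tested.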

How the results depend on the processing

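Over 22 alternatives a comparison, 15 of the 23 calls of the 10 genes were kept in all and none reversed. Scaling by library sizes alone moved the median log2 fold change of all genes against Halo-NLS by up to 0.30, to 0.28 in SOX9-Halo_spheroid, where 3102 genes were then called higher and 2229 lower against 2392 and 2682 with TMM, and to 0.29 in SOX9-mEGFP_spheroid, with 3333 higher and 1500 lower against 2690 and 2133, but turned no called gene among the 10. Counts over all genes moved most for the budding conditions against Halo-NLS. In SOX9-Halo_budding, with 438 higher and 221 lower, they were 1068 and 109 by library sizes alone, 1176 and 426 with DESeq2, 1933 and 424 with no low-count filter, 5 and 0 with the compared libraries alone, and 125 and 76 without Halo-NLS replicate 2, 187 and 101 without replicate 3. In SOX9-mEGFP_budding, with 350 and 134, they were 620 and 108, 926 and 271, 1730 and 261, 65 and 38, 143 and 73, and 191 and 83 in the same order. Between the budding conditions, 51 higher and 29 lower became 92 and 104 with DESeq2, 116 and 164 with no filter and 17 and 2 with the compared libraries alone. The count of genes whose change differed between the lines was 2 and became 1 with library sizes alone, where G6pdx was lost, and 3 with DESeq2. Leaving out single libraries gave 1 to 3 genes for this count (1 without any of 9 libraries of the SOX9 conditions) and 1 to 3 for SOX9-mEGFP_spheroid against SOX9-mEGFP_budding. Calls of Gclc in that comparison were lost in 12 alternatives (log2 1.03 to 1.45), of Gclm in the SOX9-Halo line from budding to spheroid in 10 (0.93 to 1.19) and of Gclm in SOX9-Halo_spheroid against Halo-NLS in 2. The cause was not tested. The replicate number was also fitted as a block (replicate block), with 1 effect per replicate number shared by all 15 libraries. From budding to spheroid in the SOX9-Halo line, 6 genes then stayed called, Nqo1 fell by 6.63 and Hmox1 rose by 3.67. The block changed no call in that comparison. A fit paired within the SOX9-Halo line alone was not run. Precision is limited by 3 replicates of 1 line per condition, and for Gpx3 by its few counts.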
